A study of Saccharomyces cerevisiae with 64 samples.

Results

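The 34 genes described here act at the end of mitosis and in cytokinesis in budding yeast, Saccharomyces cerevisiae. They were taken by name from a list, out of 7053 gene names in the RNA table. All 34 were found, each alone in its table entry, and all were tested in the 3 comparisons of the table. By role, 6 are mitotic kinases and activators of the anaphase-promoting complex (APC/C), 11 belong to the mitotic exit network, 3 set bud sites, 6 build the actomyosin ring and the septum, 5 are septins and 3 form the morphogenesis checkpoint. Together they cover 14 of the nuclear chromosomes, with the most, 5 genes, on chromosome X.

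RNA was measured in wild-type cells that overexpressed (OE) the forkhead transcription factor Fkh2 from the galactose-inducible promoter pGAL (Fkh2 OE), in wild-type cells with pGAL-Fkh1 (Fkh1 OE), and in wild-type cells carrying pGAL with no insert (no OE). All 3 groups were arrested in G1 with 7.5 nM α-factor, the mating pheromone, for 3 h in 2% raffinose at 25 °C, and then received 2% galactose for 2 h with the pheromone still present. The 6 RNA libraries, 2 in each group, are part of a series of 64 libraries, of which the other 58 hold DNA from replication experiments. The cells carry the construct on top of their own FKH1 and FKH2 genes. The pheromone was given to hold all of them before S phase, so the RNA of the members was meant to be read outside mitosis. Mitosis is the stage at which most of these genes act.

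At the end of mitosis, the APC/C with its activator Cdc20 and then Cdh1 marks securin and mitotic cyclins for destruction. The mitotic exit network is a signalling cascade from the GTPase Tem1 through the kinases Cdc15 and Dbf2-Mob1 to the phosphatase Cdc14, which is held in the nucleolus by Net1 until it is released and reverses the work of the mitotic cyclin-dependent kinase. Septins form a collar at the bud neck, on which an actomyosin ring contracts and the chitin synthase Chs2 lays down the primary septum. Many of these genes belong to the CLB2 cluster, a set transcribed in G2 and M phase by Mcm1 with Fkh2 and the coactivator Ndd1, with Fkh1 as a related forkhead factor.

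The values are the authors' FPKM (fragments scaled to transcript length and to the number of mapped fragments), with 1 value for each group and gene, so the spread between the libraries of a group cannot be shown, and the depth of the libraries is unknown. A gene is said to have risen or fallen where the authors' q-value, from Cuffdiff, is below 0.05. FKH2 was listed at 2220 FPKM in Fkh2 OE cells, 13.3 FPKM in Fkh1 OE cells and 14.3 FPKM in no OE cells. FKH1 was listed at 8.23 FPKM in Fkh2 OE cells, 1458 FPKM in Fkh1 OE cells and 20.9 FPKM in no OE cells. Each overexpressed gene was thus high in the group labelled for it. Genes of the a mating type and of the pheromone response were read in the same groups. The lowest of the 6 listed a-type genes had 198 FPKM in Fkh2 OE cells, 350.0 FPKM in Fkh1 OE cells and 232 FPKM in no OE cells. The lowest of 12 response genes had 73.3, 126 and 146 FPKM in the same order. No RNA group was left unarrested, so these levels do not test the arrest.

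The members were weakly expressed in the arrest. Their median level was 21.1 FPKM in Fkh2 OE cells, 29.0 FPKM in Fkh1 OE cells and 29.1 FPKM in no OE cells, against medians over 6259 genes of 57.6, 60.2 and 60.4 FPKM in the same groups. HOF1, which encodes an F-BAR protein of the bud neck, was the lowest member in every group, at 2.38 FPKM in Fkh2 OE, 1.79 FPKM in Fkh1 OE and 1.17 FPKM in no OE cells. CDC10, a septin gene, was the highest in every group, at 142 FPKM in Fkh2 OE, 181 FPKM in Fkh1 OE and 191 FPKM in no OE cells. Levels of at least 50 FPKM were listed for 7 members in Fkh2 OE cells, 10 in Fkh1 OE cells and 10 in no OE cells, and the septins were among them in every group.

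**Figure D1:**
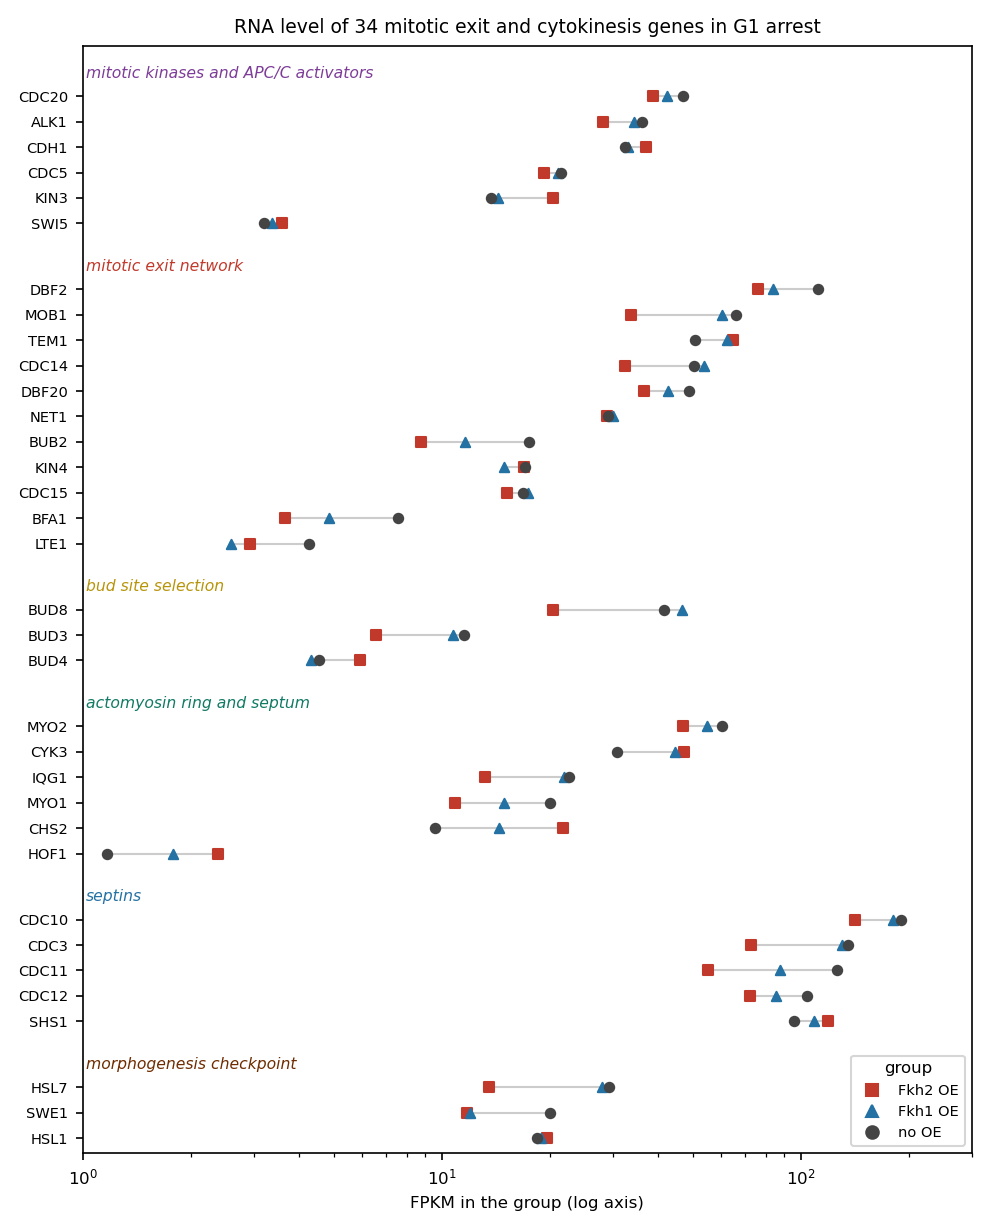
Level of each of the 34 members, in FPKM on a log axis, with 1 value per group (red squares, Fkh2 OE; blue triangles, Fkh1 OE; grey circles, no OE), sorted within each role by level. For 24 of 34 members the Fkh2 OE value lies left of the no OE value, and CHS2, CYK3, HOF1 and KIN3 are among those where it lies to the right.

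With Fkh2 overexpressed, 16 of the 34 members passed the test against no OE cells, and most of them fell. The 14 that fell were CDC11, HSL7, BFA1, BUD8, BUB2, MOB1, CDC3, MYO1, BUD3, IQG1, SWE1, CDC14, DBF2 and CDC12. The other two, CHS2 and CYK3, which both serve the building of the septum, rose. The members that fell came from every role except the mitotic kinases and APC/C activators. The share of members called was 47.1%, against 30.7% of the 6208 genes tested, and the share that fell was 41.2%, against 17.0% of all genes. In the other direction 5.88% of members rose, against 13.7% of all genes. The median log2 fold of the members, Fkh2 OE over no OE, was -0.39, against -0.03 over all genes tested, and 24 of 34 members lay below 0. These shares have no test and describe a list drawn up with results of these data in view.

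None of the 6 mitotic kinases and APC/C activators passed the test in any of the 3 comparisons. Over all genes tested, 30.7% passed in Fkh2 OE against no OE cells and 11.0% in Fkh1 OE against no OE cells. Between Fkh2 OE and Fkh1 OE cells 18.9% passed. CDC5 encodes the polo kinase of mitosis and was listed at 19.3 FPKM in Fkh2 OE cells, 21.03 FPKM in Fkh1 OE cells and 21.5 FPKM in no OE cells. CDC20 had 38.9 FPKM in Fkh2 OE, 42.3 FPKM in Fkh1 OE and 47.0 FPKM in no OE cells. CDH1, the G1 activator of the APC/C, had 37.1 FPKM in Fkh2 OE, 33.0 FPKM in Fkh1 OE and 32.3 FPKM in no OE cells. The ratio of CDC20 to CDH1, both per length, was thus 1.05 in Fkh2 OE, 1.28 in Fkh1 OE and 1.45 in no OE cells. SWI5, a transcription factor of the M to G1 transition, was near the bottom of all genes, at 3.59 FPKM in Fkh2 OE, 3.37 FPKM in Fkh1 OE and 3.19 FPKM in no OE cells.

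For these genes the test limits the change rather than showing that there was none. From the p-values in the authors' deposited table, taken as those of a normal test, the 95% interval of the Fkh2 OE over no OE fold ran from 0.663 to 1.21 for CDC5. The same interval ran from 0.626 to 1.09 for CDC20 and from 0.717 to 1.76 for SWI5. ALK1, a haspin kinase gene, had 28.2 FPKM in Fkh2 OE, 34.4 FPKM in Fkh1 OE and 36.0 FPKM in no OE cells. KIN3, a kinase gene related to NIMA, was the only one of the 6 with a fold over 1.4 in a comparison, at 20.5 FPKM in Fkh2 OE, 14.3 FPKM in Fkh1 OE and 13.7 FPKM in no OE cells; its fold of 1.49 over no OE cells did not pass in the authors' deposited table (q = 0.0700).

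Among the 11 members of the mitotic exit network, 5 fell in Fkh2 OE against no OE cells and none rose. That is 45.5% of them, where 17.0% of all genes tested fell and 13.7% rose. The effector end of the cascade was lower in Fkh2 OE cells. MOB1, which encodes the partner that activates Dbf2, was listed at 33.6 FPKM in Fkh2 OE, 60.2 FPKM in Fkh1 OE and 66.0 FPKM in no OE cells, and fell 1.96-fold against no OE cells (q = 0.000327 in the authors' deposited table, the smallest q it holds). CDC14 had 32.4 FPKM in Fkh2 OE, 53.8 FPKM in Fkh1 OE and 50.6 FPKM in no OE cells, and fell 1.56-fold (q = 0.0107 in the authors' deposited table). For both genes the Fkh1 OE value lay close to the no OE value, and only the Fkh2 OE value was low.

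DBF2, the kinase gene itself, had 76.2 FPKM in Fkh2 OE, 84.0 FPKM in Fkh1 OE and 112 FPKM in no OE cells, and fell 1.47-fold against no OE cells (q = 0.0258 in the authors' deposited table). Its paralog DBF20 had 36.7 FPKM in Fkh2 OE, 42.6 FPKM in Fkh1 OE and 48.7 FPKM in no OE cells and did not pass (q = 0.119 in the authors' deposited table). DBF2 was the higher of the paralogs in every group: the ratio of DBF2 to DBF20, per length, was 2.08 in Fkh2 OE, 1.97 in Fkh1 OE and 2.29 in no OE cells. The sources used here do not say how reads shared by the paralogs were counted, so the split between them is uncertain.

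BFA1 and BUB2 encode the 2 subunits of the GTPase-activating complex that keeps Tem1 inactive, and both fell with Fkh2. BFA1 had 3.66 FPKM in Fkh2 OE, 4.86 FPKM in Fkh1 OE and 7.54 FPKM in no OE cells, and fell 2.06-fold against no OE cells (q = 0.00659 in the authors' deposited table). BUB2 had 8.74 FPKM in Fkh2 OE, 11.7 FPKM in Fkh1 OE and 17.5 FPKM in no OE cells, and fell 2.00-fold (q = 0.0142 in the authors' deposited table). Thus the RNAs of the brake on Tem1 and of the effectors MOB1, DBF2 and CDC14 were lower in the same cells.

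The other members of the network did not pass the test with Fkh2. TEM1, the GTPase gene, had 64.9 FPKM in Fkh2 OE, 62.3 FPKM in Fkh1 OE and 50.6 FPKM in no OE cells. CDC15 had 15.2, 17.4 and 16.8 FPKM in the same order, NET1 had 28.9, 30.1 and 29.0 FPKM, and KIN4, a kinase gene of the spindle position checkpoint, had 16.9, 14.9 and 17.1 FPKM. LTE1, which promotes exit when the spindle enters the bud, had 2.93 FPKM in Fkh2 OE, 2.58 FPKM in Fkh1 OE and 4.26 FPKM in no OE cells, and its difference with Fkh2 did not pass (q = 0.115 in the authors' deposited table). CDC15 overlaps the small gene YAR019W-A and NET1 overlaps APQ13, and the sources used here do not say whether the counting used strand. APQ13 was listed at 26.0 FPKM in Fkh2 OE, 53.0 FPKM in Fkh1 OE and 29.1 FPKM in no OE cells, and YAR019W-A at no more than 2.23 FPKM in any group.

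Of the 3 genes of bud site selection, BUD8 and BUD3 fell with Fkh2 and BUD4 did not pass. The share that fell was 66.7%, where 17.0% of all genes tested fell, but a share of 3 genes moves in large steps. BUD8, which marks the distal pole of the cell, was listed at 20.5 FPKM in Fkh2 OE, 46.6 FPKM in Fkh1 OE and 41.5 FPKM in no OE cells, and fell 2.03-fold against no OE cells (q = 0.000327 in the authors' deposited table). BUD3, needed for the axial pattern, had 6.57 FPKM in Fkh2 OE, 10.7 FPKM in Fkh1 OE and 11.5 FPKM in no OE cells, and fell 1.76-fold (q = 0.00141 in the authors' deposited table). BUD4, whose protein acts with Bud3 at the neck, had 5.91 FPKM in Fkh2 OE, 4.32 FPKM in Fkh1 OE and 4.55 FPKM in no OE cells. The 2 axial genes therefore lay on opposite sides of no OE in Fkh2 OE cells, although the BUD4 difference did not pass the test.

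The ring and septum genes were the only role with calls in both directions. CHS2 had 21.8 FPKM in Fkh2 OE, 14.5 FPKM in Fkh1 OE and 9.56 FPKM in no OE cells, and rose 2.28-fold in Fkh2 OE against no OE cells (q = 0.000327 in the authors' deposited table). CYK3, whose protein promotes septum formation, had 47.4 FPKM in Fkh2 OE, 44.6 FPKM in Fkh1 OE and 30.9 FPKM in no OE cells, and rose 1.54-fold (q = 0.00926 in the authors' deposited table). HOF1 was 2.04-fold higher in Fkh2 OE than in no OE cells, but at 2.38 against 1.17 FPKM it did not pass (q = 0.0657 in the authors' deposited table). Both genes that rose were thus higher in each overexpressing group than in no OE cells, CHS2 more so with Fkh2.

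MYO1 and IQG1, of the contractile ring, moved the other way. MYO1, the heavy chain gene of the type II myosin of the ring, had 10.9 FPKM in Fkh2 OE, 14.9 FPKM in Fkh1 OE and 20.0 FPKM in no OE cells, and fell 1.84-fold in Fkh2 OE against no OE cells (q = 0.000327 in the authors' deposited table). IQG1, the IQGAP gene needed to bring actin to the ring, had 13.2 FPKM in Fkh2 OE, 22.0 FPKM in Fkh1 OE and 22.7 FPKM in no OE cells, and fell 1.72-fold (q = 0.000894 in the authors' deposited table). MYO2, a type V myosin gene that carries vesicles into the bud, had 46.9 FPKM in Fkh2 OE, 54.9 FPKM in Fkh1 OE and 60.5 FPKM in no OE cells and did not pass. With members on both sides of no OE, the summed level of the 6 genes was close between groups, at 143 FPKM in Fkh2 OE, 153 FPKM in Fkh1 OE and 145 FPKM in no OE cells.

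Of the 5 septin genes, 3 fell with Fkh2, and the septins were not lowered evenly. The share that fell was 60%, where 17.0% of all genes tested fell, but it rests on 5 genes. CDC11 had 55.2 FPKM in Fkh2 OE, 87.8 FPKM in Fkh1 OE and 126 FPKM in no OE cells, and fell 2.29-fold in Fkh2 OE against no OE cells, the largest fall of any member in that comparison (q = 0.000327 in the authors' deposited table). CDC3 had 72.8 FPKM in Fkh2 OE, 130.0 FPKM in Fkh1 OE and 136 FPKM in no OE cells, and fell 1.86-fold (q = 0.000327 in the authors' deposited table). CDC12 had 72.3 FPKM in Fkh2 OE, 85.3 FPKM in Fkh1 OE and 104 FPKM in no OE cells, and fell 1.44-fold (q = 0.0250 in the authors' deposited table).

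CDC10 and SHS1 did not pass. CDC10 (q = 0.0940 in the authors' deposited table for Fkh2 OE against no OE) stayed the most abundant septin RNA in every group. SHS1 had 119 FPKM in Fkh2 OE, 109 FPKM in Fkh1 OE and 96.0 FPKM in no OE cells. Cdc11 and Shs1 are the alternative end subunits of the septin rod, and the ratio of CDC11 to SHS1 RNA, per length, was 0.462 in Fkh2 OE, 0.805 in Fkh1 OE and 1.31 in no OE cells. The RNA of Cdc11 was therefore above that of Shs1 in no OE cells and below it in both overexpressing groups; the ratio has no test of its own. The summed level of the 5 septins was 462 FPKM in Fkh2 OE, 593 FPKM in Fkh1 OE and 653 FPKM in no OE cells.

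In the morphogenesis checkpoint, which holds back mitosis when a bud is missing, both the inhibitory kinase SWE1 and HSL7, which targets Swe1 for destruction, fell with Fkh2. The share that fell was 66.7% of 3 genes, where 17.0% of all genes tested fell. HSL7 had 13.5 FPKM in Fkh2 OE, 27.9 FPKM in Fkh1 OE and 29.2 FPKM in no OE cells, and fell 2.16-fold in Fkh2 OE against no OE cells (q = 0.000327 in the authors' deposited table). SWE1 had 11.7 FPKM in Fkh2 OE, 12.0 FPKM in Fkh1 OE and 20.1 FPKM in no OE cells, and fell 1.71-fold (q = 0.00436 in the authors' deposited table). HSL1, the kinase gene that acts with HSL7, had 19.6, 18.9 and 18.4 FPKM in Fkh2 OE, Fkh1 OE and no OE cells and did not pass. HSL7 was low in Fkh2 OE cells and near the no OE level in Fkh1 OE cells, and SWE1 was at a like level in both overexpressing groups. HSL7 overlaps YBR134W, which was listed at 4.02 FPKM in Fkh2 OE, 4.86 FPKM in Fkh1 OE and 2.19 FPKM in no OE cells.

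**Figure D2:**
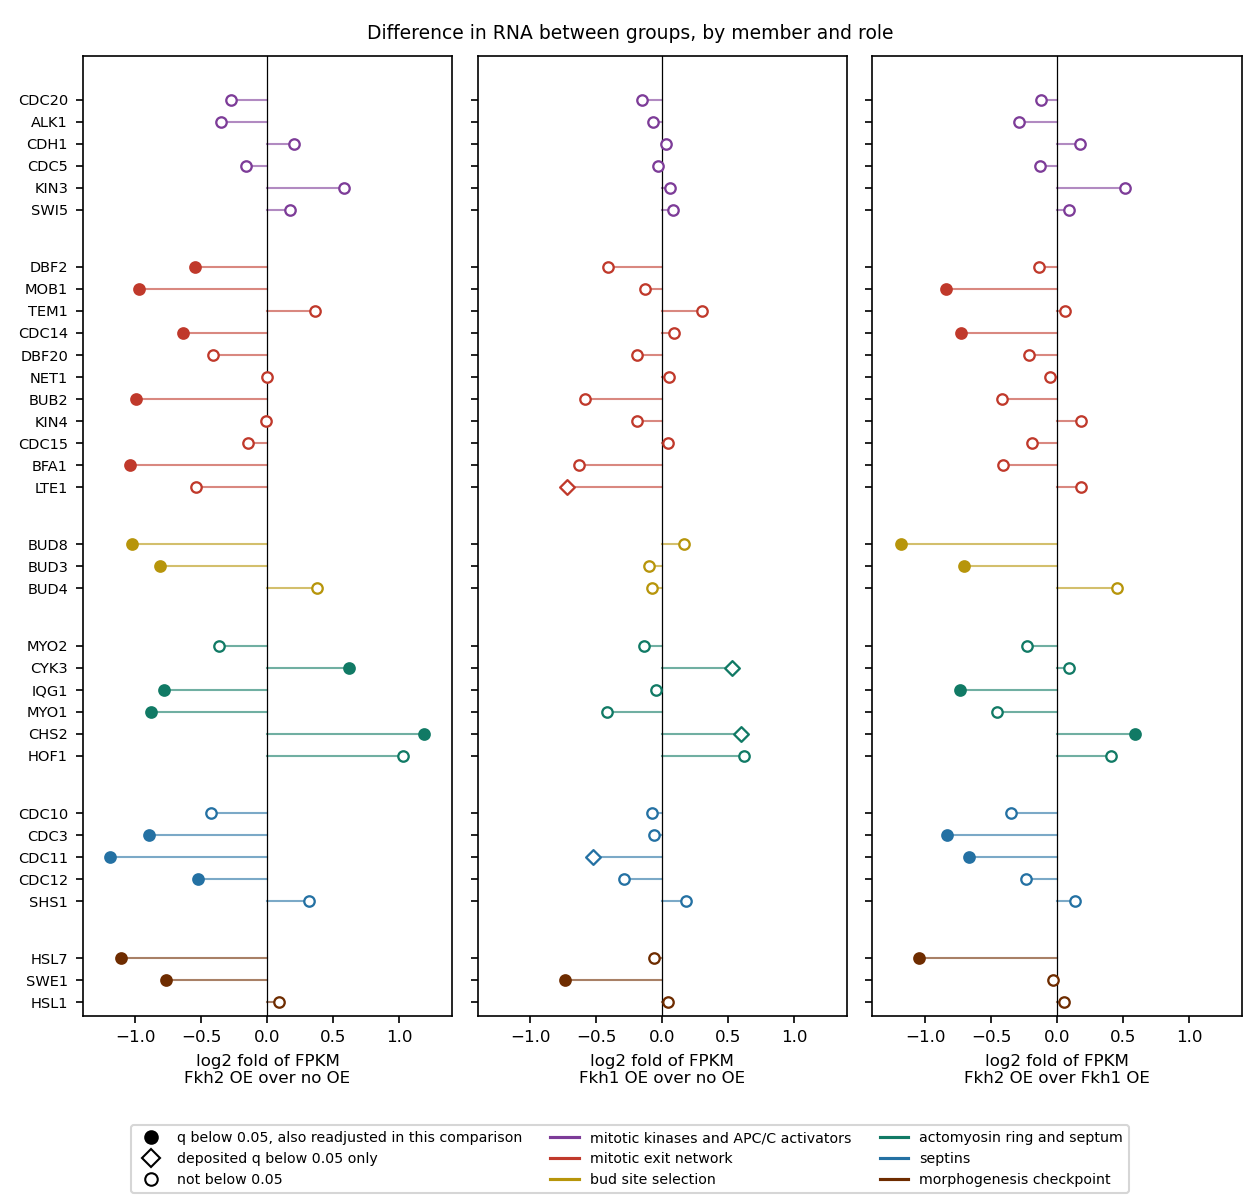
Log2 fold of FPKM for each member in the 3 comparisons, the group named first on each axis over the other. Filled circles pass at 0.05 by the deposited q and when readjusted within the comparison, open diamonds pass by the deposited q only, and open circles pass by neither. Of the 16 filled circles of Fkh2 OE over no OE, CHS2 and CYK3 lie right of 0, while Fkh1 OE over no OE has SWE1 as a filled circle and 4 open diamonds.

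With Fkh1 overexpressed, few of the 34 members differed from no OE cells. By the deposited q, 5 passed: SWE1, LTE1 and CDC11 fell, and CHS2 and CYK3 rose. That is 14.7% of the members, against 11.0% of the 6212 genes tested, so the share lay near the background; 5.39% of all genes fell and 5.59% rose. The median log2 fold of the members, Fkh1 OE over no OE, was -0.07, against 0.00 over all genes tested. SWE1 fell 1.67-fold (q = 0.00497 in the authors' deposited table), and LTE1 fell 1.65-fold (q = 0.0328 in the authors' deposited table). CDC11 fell 1.44-fold (q = 0.0293 in the authors' deposited table). CHS2 rose 1.51-fold (q = 0.0369 in the authors' deposited table), and CYK3 rose 1.44-fold (q = 0.0286 in the authors' deposited table).

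The weaker calls with Fkh1 rested on how p-values were adjusted. The deposited q-values are lower than those of a Benjamini-Hochberg adjustment over the rows of the table; with that adjustment over the Fkh1 comparison alone, SWE1 was the member that passed (adjusted p = 0.0264), and CYK3, CDC11, LTE1 and CHS2 had adjusted p-values of 0.0987, 0.101, 0.110 and 0.119. Over all genes that adjustment called 5.51% of those tested. The 16 members called with Fkh2 against no OE, beside 30.3% of all genes, and the 9 called between Fkh2 and Fkh1, beside 14.4% of all genes, passed under that adjustment too. MYO1, BFA1 and DBF2 lay below no OE in Fkh1 OE cells without passing, with q-values of 0.0944, 0.102 and 0.108 in the authors' deposited table. Both comparisons with no OE cells use the same control libraries, so a high or low control value moves both folds of a gene together.

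The direct comparison of Fkh2 OE with Fkh1 OE cells uses no control library and tests where the factors differ. Here 9 of 34 members passed, 26.5% against 18.9% of the 6227 genes tested. BUD8, HSL7, MOB1, CDC3, IQG1, CDC14, BUD3 and CDC11 were lower in Fkh2 OE cells, 23.5% of the members against 11.7% of all genes, and CHS2 was higher, 2.94% against 7.24%. The median log2 fold of the members was -0.16, Fkh2 OE over Fkh1 OE, against -0.04 over all genes tested. The largest difference was that of BUD8, 2.28-fold lower in Fkh2 OE cells, followed by HSL7, 2.07-fold lower (q = 0.000327 for both in the authors' deposited table).

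MOB1 was 1.79-fold lower in Fkh2 OE than in Fkh1 OE cells (q = 0.00141 in the authors' deposited table), and CDC14 was 1.66-fold lower (q = 0.00328 in the authors' deposited table). CDC3 was 1.78-fold lower (q = 0.000619 in the authors' deposited table), and CDC11 was 1.59-fold lower (q = 0.00620 in the authors' deposited table). IQG1 was 1.67-fold lower (q = 0.00260 in the authors' deposited table), and BUD3 was 1.63-fold lower (q = 0.00620 in the authors' deposited table). CHS2 was 1.51-fold higher in Fkh2 OE cells (q = 0.0255 in the authors' deposited table).

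The members thus fall into a few patterns over the 3 comparisons, which describe the calls and were not tested as groups. The share of all genes with each pattern was not counted, so the sizes of these groups have no background to be set against. CDC14, MOB1, BUD3, BUD8, IQG1, CDC3 and HSL7, 7 genes, were lower in Fkh2 OE than in either other group and were not called between Fkh1 OE and no OE. DBF2, BFA1, BUB2, MYO1 and CDC12, 5 genes, fell in Fkh2 OE against no OE only, with Fkh1 OE values between the other groups; a difference between Fkh2 and Fkh1 did not pass for them. CDC11 and CHS2 were called in all 3 comparisons, with Fkh1 OE between the other groups. SWE1 and CYK3 were called in both comparisons with no OE and not between the factors, and LTE1 in Fkh1 OE against no OE only. The 17 members called in no comparison were CDC5, CDC20, CDH1, SWI5, KIN3, ALK1, CDC15, DBF20, TEM1, NET1, KIN4, BUD4, MYO2, HOF1, CDC10, SHS1 and HSL1.

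The size of change that could pass was limited. Among members called in Fkh2 OE against no OE, the smallest absolute log2 fold was 0.53, and the median standard error of a member's log2 fold implied by the authors' p-values was 0.21. HOF1, with a log2 fold of 1.03, was the largest difference that did not pass, and its implied standard error of 0.45 was the largest of the members with an estimate. RNA per culture was measured, so fewer cells expressing a gene and less RNA per cell cannot be told apart. The labels do not tell whether the 2 libraries of a group were grown separately, and the p-values cover only the spread between these libraries, which may be technical.

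**Figure D3:**
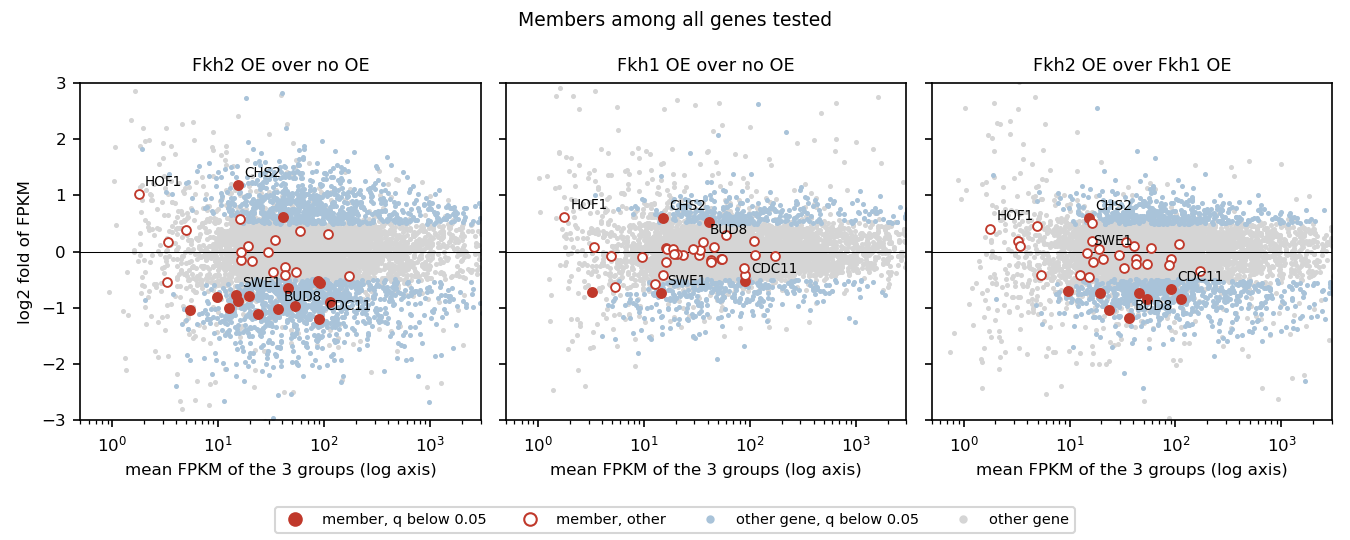
Log2 fold of FPKM against the mean FPKM of the 3 groups (log axis) in the 3 comparisons, with the 34 members in red (filled where the deposited q is below 0.05) over all genes tested (blue where called, grey otherwise); genes beyond the axes are not drawn. The members lie mostly at low to middle levels, and with Fkh2 over no OE their median of -0.39 lies below that of all genes, -0.03.

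The CLB2 cluster was set against the other members, by a list of its members. Of the 15 members in it, 6 fell (BUD8, MOB1, MYO1, BUD3, IQG1 and DBF2) and CHS2 rose in Fkh2 OE against no OE cells, with a median log2 fold of -0.27. The share called was 46.7%, against 30.7% of all genes tested, of which 17.0% fell and 13.7% rose. Among the 19 members outside it, 8 fell and CYK3 rose, 47.4% called, with a median of -0.43. Falls were thus found on both sides of the list, and CDC5, CDC20 and SWI5, among the best known genes of the cluster, did not pass. Of 7 other genes of the cluster, CLB2 and CLB1 rose and NUM1 fell in the same comparison, 42.9% of that list. The cyclin gene CLB2 had 22.8 FPKM in Fkh2 OE, 14.3 FPKM in Fkh1 OE and 12.8 FPKM in no OE cells, and rose 1.79-fold in Fkh2 OE against no OE cells (q = 0.00415 in the authors' deposited table). CLB1 had 7.62 FPKM in Fkh2 OE, 4.06 FPKM in Fkh1 OE and 3.25 FPKM in no OE cells, and rose 2.34-fold (q = 0.00832 in the authors' deposited table). NUM1, which encodes a cortical anchor of dynein, had 16.8 FPKM in Fkh2 OE, 19.3 FPKM in Fkh1 OE and 25.6 FPKM in no OE cells, and fell 1.53-fold (q = 0.0109 in the authors' deposited table).

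Of the regulators of the cluster, NDD1 had 9.41 FPKM in Fkh2 OE, 12.7 FPKM in Fkh1 OE and 20.6 FPKM in no OE cells, and fell 2.19-fold in Fkh2 OE against no OE cells (q = 0.000327 in the authors' deposited table). MCM1 had 98.1 FPKM in Fkh2 OE, 97.1 FPKM in Fkh1 OE and 87.1 FPKM in no OE cells and did not pass. FKH1 itself fell 2.54-fold in Fkh2 OE against no OE cells (q = 0.000327 in the authors' deposited table).

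Other genes of mitotic exit control, 16 in number, were read from a further list. In Fkh2 OE against no OE cells 6 fell and none rose, 37.5% of the list, where 17.0% of all genes fell and 30.7% were called, with a median log2 fold of -0.33; the 3 with the largest falls were PDS1, SLK19 and TOF2. PDS1, the securin gene, had 3.85 FPKM in Fkh2 OE, 4.97 FPKM in Fkh1 OE and 17.4 FPKM in no OE cells, and fell 4.52-fold with Fkh2 (q = 0.000327 in the authors' deposited table). SLK19, of the early anaphase release pathway of Cdc14, had 20.7 FPKM in Fkh2 OE, 25.3 FPKM in Fkh1 OE and 68.3 FPKM in no OE cells, and fell 3.30-fold (q = 0.000327 in the authors' deposited table). TOF2, which encodes a nucleolar partner of Cdc14, had 3.31 FPKM in Fkh2 OE, 3.95 FPKM in Fkh1 OE and 7.72 FPKM in no OE cells, and fell 2.33-fold (q = 0.00116 in the authors' deposited table). These 3 fell in Fkh1 OE against no OE cells too, by log2 folds of -1.81, -1.43 and -0.97, and AMN1, an inhibitor of Tem1, rose by a log2 fold of 0.85. That is 25% of the list called, where 11.0% of all genes were called, 5.39% lower and 5.59% higher. Between Fkh2 OE and Fkh1 OE cells 4 of the 16 were lower and none was higher, 25%, where 11.7% of all genes were lower. When p-values were adjusted over that comparison alone, 3 of those 4 passed.

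Among 15 other APC/C subunits and regulators, 3 fell with Fkh2 and none rose, 20.0% of the list, near the 17.0% of all genes that fell and below the 30.7% called. ACM1, an inhibitor of Cdh1, had 7.70 FPKM in Fkh2 OE, 22.1 FPKM in Fkh1 OE and 28.4 FPKM in no OE cells, and fell 3.69-fold in Fkh2 OE against no OE cells (q = 0.000327 in the authors' deposited table). The subunit genes CDC23 and APC2 fell 1.498-fold and 1.43-fold in the same comparison, with q-values of 0.0390 and 0.0487 in the authors' deposited table. APC4, a subunit gene, was the only one called in Fkh1 OE against no OE cells, where it rose; its table entry also holds the overlapping gene YDR118W-A, and the value cannot be split between them. The entry had 204 FPKM in Fkh2 OE, 131 FPKM in Fkh1 OE and 21.2 FPKM in no OE cells, and its 9.59-fold difference with Fkh2 did not pass (q = 0.246 in the authors' deposited table), while the 6.18-fold difference with Fkh1 did (q = 0.000327 in the authors' deposited table).

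Of 33 other genes of cytokinesis and the bud neck, 11 fell in Fkh2 OE against no OE cells and none rose, 33.3% of the list, where 17.0% of all genes fell and 30.7% were called in either direction, with a median log2 fold of -0.16. Of these 11, 10 were alone in their table entry, and the value of the remaining gene cannot be split from what shares its entry. NIS1, a bud neck gene, had 61.4 FPKM in Fkh2 OE, 152 FPKM in Fkh1 OE and 185 FPKM in no OE cells, and fell 3.01-fold with Fkh2 (q = 0.000327 in the authors' deposited table). BNI5, which encodes a septin-binding protein that recruits Myo1, had 13.3 FPKM in Fkh2 OE, 25.1 FPKM in Fkh1 OE and 37.6 FPKM in no OE cells, and fell 2.83-fold (q = 0.000327 in the authors' deposited table). RHO1, the GTPase gene that drives ring assembly and cell wall synthesis, had 642 FPKM in Fkh2 OE, 1206 FPKM in Fkh1 OE and 1348 FPKM in no OE cells, and fell 2.10-fold (q = 0.000327 in the authors' deposited table). With Fkh1, BNI5 fell and CHS3 and AXL2 rose by the deposited q, 9.09% of the list against 11.0% of all genes. Only 2 of these 3 were alone in their table entry. None of the 3 passed when p-values were adjusted over the Fkh1 comparison alone. Between Fkh2 OE and Fkh1 OE cells 9 of the 33 were lower and none was higher. That is 27.3% of the list, where 11.7% of all genes were lower and 7.24% higher.

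**Figure D4:**
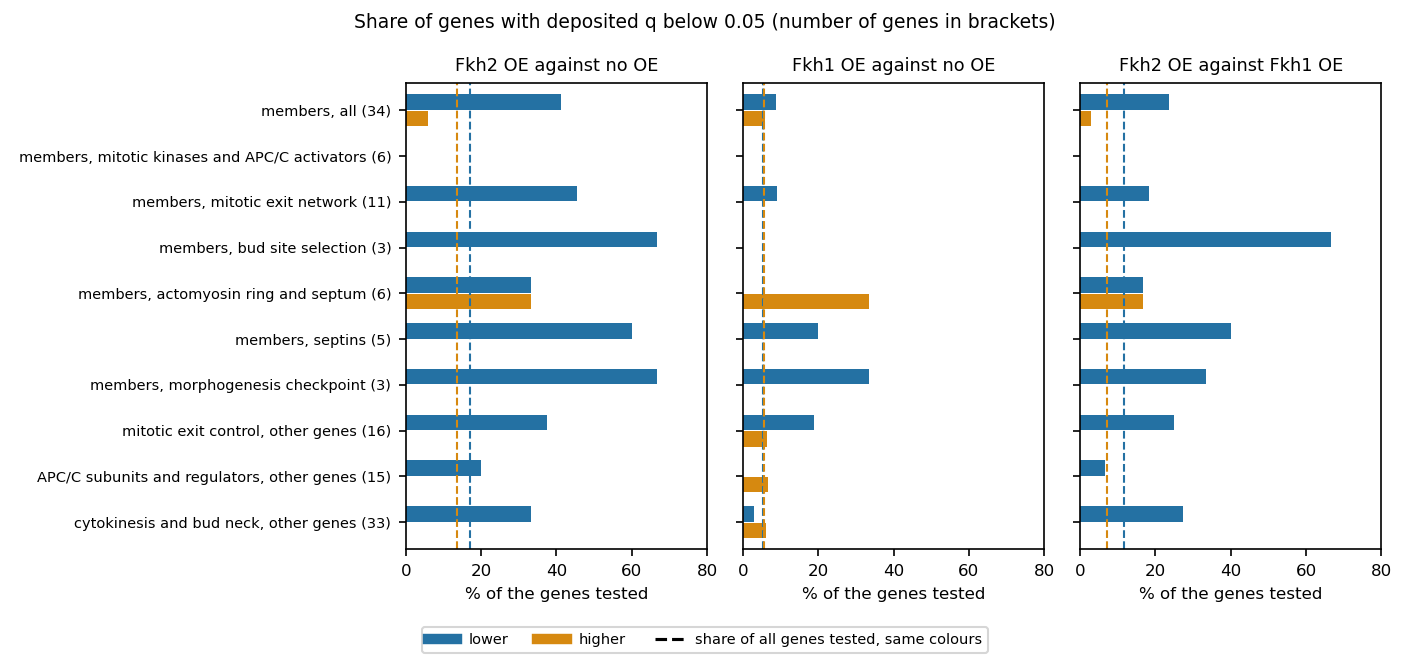
Share of the genes tested that fell or rose (deposited q below 0.05) among all members, in each of their roles and in 3 other lists, for the 3 comparisons (blue bars, lower; orange bars, higher; dashed lines, all genes tested), with the number of genes in brackets. In Fkh2 OE against no OE the falls among all members, 41.2%, stand beside 17.0% of all genes; roles hold as few as 3 genes, so their shares move in large steps.

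Genes that report the state of the arrest were read beside these results, where 30.7% of all genes were called, 17.0% lower and 13.7% higher. In Fkh2 OE against no OE cells, 5 of 12 pheromone response genes fell (FIG1, STE12, KAR4, PRM3 and FUS1) and none rose, 41.7% of the list, and their summed level was 8656 FPKM in Fkh2 OE, 13399 FPKM in Fkh1 OE and 12647 FPKM in no OE cells. Of 8 histone genes transcribed in S phase, 3 fell and 1 rose, 50% of the list, with sums of 6082, 8661 and 8239 FPKM in the same order. Of 13 genes of late G1, RNR1 and POL1 rose and MNN1 fell, 23.1% of the list and below the share of all genes, with sums of 231, 232 and 236 FPKM. None of 6 galactose-induced genes was called in any comparison, with sums of 22545, 25076 and 23627 FPKM.

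Of 9 targets of Swi5, PIR1, EGT2 and PCL9 rose and RME1 fell in Fkh2 OE against no OE cells. That is 44.4% of the list, where 30.7% of all genes were called. In Fkh1 OE against no OE cells PIR1 and EGT2 rose and RME1 fell by the deposited q, 33.3% against 11.0% of all genes. None of these passed when p-values were adjusted over the Fkh1 comparison alone. Between the factors ASH1 was the only target called, 11.1% against 18.9% of all genes. Of 6 genes of the a mating type, 3 fell in Fkh2 OE against no OE cells, 50% of the list, where 17.0% of all genes fell. In Fkh1 OE against no OE cells 3 rose, where 5.59% of all genes rose. When p-values were adjusted over the Fkh1 comparison alone, 2 of them passed. The sums of the 6 genes were 85521 FPKM in Fkh2 OE, 285628 FPKM in Fkh1 OE and 111602 FPKM in no OE cells. Most of the Fkh1 OE sum came from MFA1, at 121428 FPKM, and MFA2, at 150574 FPKM. Of the 3 markers of the other mating type, STE3 had 13.9 FPKM in Fkh2 OE, 8.996 FPKM in Fkh1 OE and 5.63 FPKM in no OE cells. MF(ALPHA)1 was listed at 1.58, 2.33 and 0 FPKM in the same order. MF(ALPHA)2, the highest of the 3 in every group, had 20.3, 19.8 and 21.5 FPKM and did not rise with either factor. The part of these shifts in the members' differences was not tested.

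Replication over the same genes was read from the deposited BrdU signal, in which newly made DNA carries bromodeoxyuridine (BrdU) and is pulled down with an antibody. In 1 experiment, Fkh2 OE, Fkh1 OE and no OE cultures were released from the arrest for 60 min in 0.2 M hydroxyurea (HU) with 400 µg/mL BrdU, which limits synthesis to the surroundings of early origins. In another, Fkh1 OE and no OE cultures were released with no HU and given 800 µg/mL BrdU in pulses from 20 to 35, 30 to 45 and 40 to 55 min after release. Each group has 1 deposited column that combines 3 HU libraries or 2 pulse libraries of immunoprecipitated DNA, so the values have no test, and a fold of 2 was used to count genes.

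In HU, CDC15 and CDC5 were the members with the most signal. CDC15, on chromosome I (172211 to 175135, R64), had a mean relative signal of 0.0574 in Fkh2 OE, 0.131 in Fkh1 OE and 0.153 in no OE cells, higher than 97.7% of genes in no OE cells. CDC5, on chromosome XIII (269019 to 271136, R64), had 0.0605 in Fkh2 OE, 0.129 in Fkh1 OE and 0.118 in no OE cells. The median over the members was 0.00463 in Fkh2 OE, 0.00623 in Fkh1 OE and 0.00455 in no OE cells, so these 2 genes stood far above the rest. KIN3, whose end lies 507 bp from that of CDC15, had only 0.0077 in Fkh2 OE, 0.0154 in Fkh1 OE and 0.0114 in no OE cells.

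CDC15 was the only member at least 2-fold lower in Fkh2 OE than in no OE HU cells, at a ratio of 0.375, where 5.66% of genes were at least 2-fold lower. No member was at least 2-fold higher, against 2.52% of genes. In Fkh1 OE over no OE HU cells, DBF20, NET1 and IQG1 were at least 2-fold higher, with ratios of 2.37, 2.45 and 2.04, where 12.1% of genes were so, and no member was 2-fold lower, against 0.677% of genes. In Fkh2 OE over Fkh1 OE HU cells, CDC15, CDC5 and KIN3 were at least 2-fold lower, where 15.3% of genes were so, and no member was 2-fold higher, against 0.389% of genes. The members' median ratio was 1.04 for Fkh2 over no OE, 1.35 for Fkh1 over no OE and 0.727 for Fkh2 over Fkh1, and that of all genes was 1.03, 1.37 and 0.733.

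In the pulse from 20 to 35 min, 20 of 34 members had at least 2-fold more signal in Fkh1 OE than in no OE cells, where 60.9% of all genes did, and none was 2-fold lower, against 0.120% of genes. In the pulse from 30 to 45 min, 14 members were at least 2-fold higher, where 45.2% of all genes were, and none was 2-fold lower, against 0.0852% of genes. In the pulse from 40 to 55 min, HOF1 was the only such member, where 9.63% of all genes were higher, and none was 2-fold lower, against 0.0508% of genes. The members' median ratio was 2.20, 1.59 and 0.961 in the 3 pulses in order of time, and that of all genes was 2.31, 1.86 and 0.994. CYK3 had the largest ratio in the earliest pulse, 8.31, with a signal of 0.0593 in Fkh1 OE and 0.0071 in no OE cells, and its ratio was 6.71 and then 1.0997 in the later pulses.

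The direction of these ratios depended on the scale of the columns, which the sources used here do not give. With every column scaled to its own total, the members' median ratio in HU was 1.604 for Fkh2 over no OE, 0.968 for Fkh1 over no OE and 1.56 for Fkh2 over Fkh1, so the order of the factors turned; the medians of all genes moved with them, to 1.59, 0.982 and 1.57. The same scaling moved DBF20, at a ratio of 1.72 unscaled, past 2-fold higher in Fkh2 OE over no OE HU cells, and no member was 2-fold lower. Under it 11.8% of genes were higher and 1.64% lower. It left no member 2-fold different in Fkh1 OE over no OE HU cells, where 6.34% of genes were higher and 1.51% lower. In the earliest pulse the scaled median was 1.03 for the members and 1.08 for all genes, with 9 members higher and ALK1 lower, where 18.3% of genes were higher and 4.77% lower. No order of the groups in BrdU signal is read from these values. The RNA was taken from arrested cells and the BrdU signal from released ones.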

How the data were processed

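The deposited RNA table holds the authors' FPKM for each of 3 groups, and a p-value and a q-value for every pair of groups, in the column layout of Cuffdiff per the file headers. The submitters' processing notes name TopHat2, Cufflinks and Cuffdiff, with Bowtie2, SAMtools and bedtools and the build R64. There were 2 libraries in each group, per the labels. The sources used here give no values per library, no depth and no strand setting, so no test of single libraries was possible and the calls are the authors' at q below 0.05. The design named limma or edgeR for values per library, which could not be used.

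Folds were recomputed from FPKM, tested over control, with no pseudocount, because part of the deposited fold column is damaged. Benjamini-Hochberg adjustments were computed from the deposited p-values over each comparison and over all 3. Of 18647 rows tested, 3768 had a deposited q below 0.05 and 3160 passed over the same rows; the smallest p, 5e-05, was shared by 1146 rows. The sources used here do not say which tests the authors adjusted over. The adjustment was checked on simulated data. Implied standard errors are the absolute log2 fold over the normal quantile of p, undefined at the smallest p.

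The BrdU signal was deposited by the authors in 50 bp bins, on a relative scale; means over each gene were taken and compared between columns. Gene names were matched to a RefSeq table of R64, 6101 of 7053 in all and all 34 members. The members and the 13 lists were chosen with earlier results of these data known. Values are given in full for members called in any comparison or at least 2-fold different, and from other lists for at most the 3 called genes with the largest log2 folds, with FKH1, FKH2, CLB1 and CLB2; 1 further gene of that rule is not reported here. Promoter and protein sequences were not used here. Alternatives were other thresholds, adjustments, filters, pseudocounts and scalings. Python 3.11.15, numpy 2.4.6, pandas 2.3.3, scipy 1.17.1 and matplotlib 3.10.9 were used.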

Additional observations from a re-analysis of the deposited data

How the results depend on the processing

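No paired analysis was possible because the table holds 1 value per group, and leaving out a library could not be run for the same reason. No RNA result reversed under any alternative run, and 2 BrdU medians did. With Fkh2 against no OE, the 14 falls stayed within 1.5 times under every alternative run. They went to 10 at q below 0.01, where CDC14, DBF2, BUB2 and CDC12 were lost. At a fold of at least 1.5 they went to 12, without DBF2 and CDC12, and at q below 0.1 to 15, with CDC10. The rises went to 4 at q below 0.1, with KIN3 and HOF1 added. Shares of all genes at these other q and fold thresholds were not counted. With Fkh1 against no OE, the rises went to 0 at q below 0.01, with Benjamini-Hochberg adjustment over that comparison, with genes of at least 5 FPKM readjusted, and with entries of 1 gene readjusted, and to 1 at a fold of at least 1.5 or with adjustment over the 3 comparisons. The falls went to 1, SWE1, at q below 0.01 and under the same adjustment over that comparison and both readjusted filters. Over all genes that comparison had 682 calls by the deposited q and 342 when adjusted over it alone. Between Fkh2 and Fkh1, the 1 rise went to 0 at q below 0.01. With BrdU columns scaled to their totals, members at least 2-fold higher and lower went to 1 and 0 for Fkh2 over no OE in HU, members higher to 0 for Fkh1 over no OE, and higher and lower to 3 and 0 for Fkh2 over Fkh1. For Fkh2 over Fkh1 under that scaling, 11.7% of all genes were higher and 1.42% lower. The HU median ratios under that scaling were 1.604 for Fkh2 over no OE, 0.968 for Fkh1 over no OE and 1.56 for Fkh2 over Fkh1, the last 2 of which changed side of 1. In the pulse to 35 min higher and lower went to 9 and 1, with a median of 1.03, where 18.3% of all genes were higher and 4.77% lower. In the pulse to 45 min higher went to 8, where 24.9% of all genes were higher. The scaling divides each column by its total, which by construction moves all ratios of a pair of columns together. This scaling, a window of 1000 bp around genes and the adjustment over 3 comparisons were chosen after seeing the data. The calls of the Fkh1 comparison with the larger q-values and the members under 5 FPKM are the least certain. Promoter and protein searches were not run.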
